A study of Homo sapiens with 4 samples.

Results

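RNA from MDA-MB-231 Fluc cells was sequenced to examine the effect of cordycepin on gene expression, and the levels of 179 solute carrier genes among the 13957 genes of the authors' deposited table are described here. MDA-MB-231 is a line from a triple-negative breast tumour with a mesenchymal appearance, and the Fluc derivative carries an inserted luciferase gene. In 2 samples the cells were treated with 50 μM cordycepin (3' deoxyadenosine), and 2 vehicle control samples received DMSO, each for 2 h. The table gives 1 mean level for each gene over all 4 libraries, so every level below combines treated and control cells. Its other measurements are the authors' own comparison of cordycepin with DMSO, which was not used, and no difference between the groups is reported. As there are no values for single libraries, no SD can be given and the depth of each library is unknown. A small difference between neighbouring levels can therefore not be judged against the spread between replicates.

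Solute carriers are membrane proteins that move nutrients, ions, metabolites and metals across the plasma membrane and the membranes of organelles. They work as facilitators, exchangers or cotransporters, and unlike ABC pumps they do not hydrolyse ATP. Families are numbered by sequence, and members of a family often share a type of substrate. Dividing tumour cells use them to take up glucose and amino acids and to export lactate, and the SLC25 family links the mitochondrial matrix to the cytosol. The genes were chosen by their symbol, SLC followed by a family number, the letter A and a member number, and the nucleoside transporter genes SLC29A1 and SLC29A2 were left out by the rule. All 179 were described as solute carrier genes in the table and as protein coding in GENCODE. They belong to 43 families, and each gene was placed by substrate in 1 of 13 classes, so that a family can be divided between classes.

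The label of the cells was checked against marker genes. Mean log2 CPM (counts scaled to library size) was 10.45 for VIM, 10.57 for CD44, 11.01 for AXL and 10.25 for CAV1. It was 9.68 for MSN and 8.64 for EGFR. All of these genes, which mark mesenchymal or basal-like breast cancer cells, were at or above percentile 97.3 of the table by log2 CPM. Per kilobase of exon EGFR was at percentile 85.1 and MSN at 95.3, with the others higher. ESR1 and PGR, which encode the hormone receptors, had no value among the genes analysed here. The epithelial genes CDH1 and EPCAM were both at 3.68 and the luminal gene GATA3 was at 4.48, below the median of the table by log2 CPM. Per kilobase of exon, EPCAM and GATA3 lay above the median, at percentiles 50.1 and 56.1, and CDH1 lay below it at percentile 27.5. ERBB2 was at 6.49, which is percentile 81.8 by log2 CPM, and at percentile 63.3 per kilobase. In this respect, and per kilobase also for EPCAM and GATA3, the levels did not follow the list of low or absent markers.

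GENCODE holds 336 protein-coding genes whose symbols follow the same rule, and 179 of these (53.3%) had a level. The remaining 157 were not analysed here. The share of all annotated protein-coding genes with a level was not computed, so 53.3% cannot be called low or high. The classes differed in how many of their annotated genes had a level. All 5 genes of the SLC35A group of nucleotide sugar transporters had one, as did 39 of 49 mitochondrial carriers (79.6%) and 18 of 24 zinc transporter genes (75.0%). In contrast, only 26 of 64 genes for amino acids and peptides (40.6%) and 11 of 46 for organic anions and cations (23.9%) did. In the SLC6 family, which includes transporters of neurotransmitters, 3 of 19 genes had a level, and in the SLC22 family of organic ion transporters 7 of 22 did. None of the 5 SLC13A, 3 SLC8A or 3 SLC28A genes did.

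**Figure D1:**
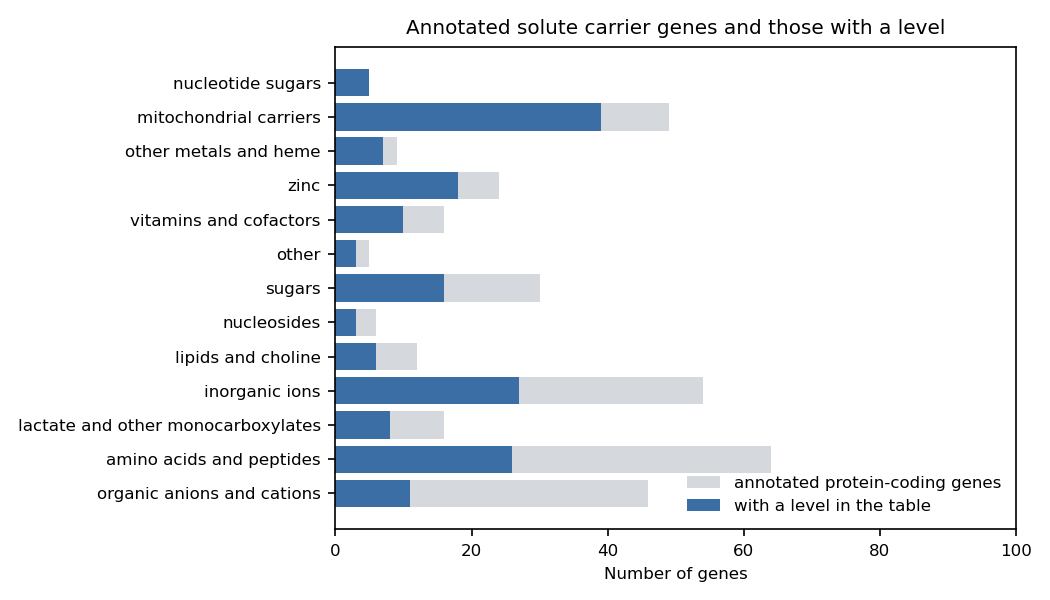
Number of annotated protein-coding solute carrier genes in each class of substrate (grey bars) and number with a level in the table (blue bars), ordered by the share with a level. The share runs from 23.9% for organic anions and cations to 5 of 5 for nucleotide sugars.

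The share of solute carrier genes above the median of the table depended on the scale, at 51.4% by log2 CPM and 43.0% per kilobase of exon. It also depended on the genes compared. By log2 CPM, 44.7% lay above the median of the protein-coding genes of the table. The log2 CPM of solute carrier genes ranged from 0.92 (SLC16A1) to 10.07 (SLC7A5), with a median of 4.67, compared with 4.58 for all genes. Of the 179 genes, 92 (51.4%) lay above the median of the table (exact Clopper-Pearson 95% limits 43.8% and 58.9%, given as a description, since genes are not independent). The lowest 25% of the table by log2 CPM held 46 of them and the highest 25% held 44. Together they made up 1.28% of the genes and 1.19% of the summed CPM.

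**Figure D2:**
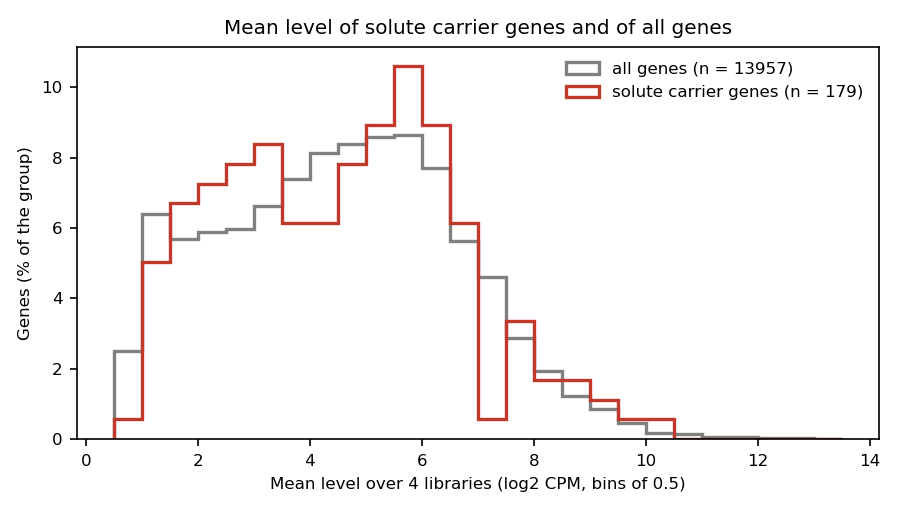
Mean level over 4 libraries as log2 CPM in bins of 0.5 (x axis) against the percentage of genes in each bin (y axis), for all 13957 genes (grey) and the 179 solute carrier genes (red). The medians are 4.58 and 4.67.

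Levels of different genes were then compared per length, as CPM divided by the kilobases of exon in the gene. On this scale the median was 4.51 CPM per kilobase for solute carrier genes and 5.24 for all genes, and 77 of the 179 (43.0%) lay above the median of the table, just under the lower limit given for the share by log2 CPM. The range was wide, from 0.150 for SLC1A2 to 382 for SLC25A5. The 10 highest genes held 53.7% of the summed CPM per kilobase of all 179, and SLC25A5 alone held 14.5%. In the highest 10% of the table were 14 genes (7.82%), and in the lowest 10% were 29.

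The class medians of CPM per kilobase ranged from 0.731 for lactate and other monocarboxylates to 9.31 for zinc transporters. Mitochondrial carriers had a median of 5.38, amino acid and peptide transporters of 4.41 and sugar transporters of 4.23. In each of these classes a few genes lay far above the median. Mitochondrial carriers held 43.4% of the summed CPM per kilobase and amino acid and peptide transporters 20.9%.

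**Figure D3:**
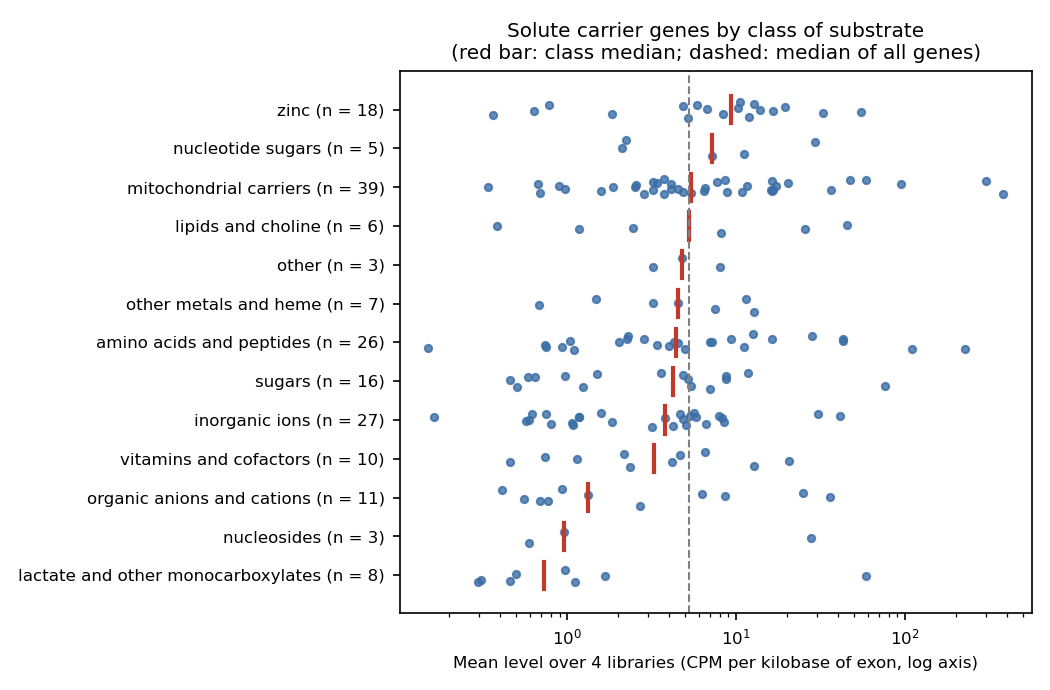
Mean level of each solute carrier gene in CPM per kilobase of exon on a log axis, with 1 point for each gene, by class of substrate (rows, with the number of genes). Red bars are class medians, from 0.731 for monocarboxylates to 9.31 for zinc, and the dashed line is the median of all genes at 5.24; points are moved at random in the vertical direction only.

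Among amino acid transporter genes, SLC7A5 was the highest, at 226 CPM per kilobase and 10.07 log2 CPM. It lies on the minus strand of chromosome 16 (87830023 to 87869507, GRCh38) and encodes the light chain of an exchanger of large neutral amino acids such as leucine. The gene for the heavy chain that brings this and related light chains to the plasma membrane, SLC3A2 (chromosome 11, 62856102 to 62888875), was at 43.2 CPM per kilobase. SLC7A5 was 5.23 times as high as SLC3A2 per kilobase of exon and 4.07 times as high per kilobase of coding sequence.

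SLC1A5 (chromosome 19, 46774883 to 46788594), which encodes a neutral amino acid exchanger that takes up glutamine, was second in this class at 110 CPM per kilobase. Next to SLC3A2 stood SLC7A1, a carrier of arginine and lysine, at 43.0. The sodium-coupled glutamine transporter genes SLC38A1 and SLC38A2 lie 88171 bases apart on the same strand of chromosome 12. Their levels were 28.0 and 16.3 CPM per kilobase.

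SLC7A11, which encodes the light chain of the cystine and glutamate exchanger, was at 11.1 CPM per kilobase, or 6.75 log2 CPM. The taurine transporter gene SLC6A6 was at 9.36 and the cationic amino acid transporter gene SLC7A2 at 7.22. Of the 26 genes of this class, 11 lay above the median of the table per kilobase and 4 lay in the highest 10%. At the other end, SLC1A2, a glutamate transporter gene of glia, was at 0.150, the lowest of all 179 genes per kilobase of exon. Its merged exons are the longest of the 179, at 22800 bases. Per kilobase of coding sequence SLC1A2 was at 1.99, above SLC4A8 at 0.886 and SLC16A1 at 1.26. SLC1A3, another glutamate transporter gene, was at 0.747 by the exon length in GENCODE and at 2.53 by the length in the authors' deposited table.

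Of the 16 sugar transporter genes, 1 stood apart. SLC2A1 (chromosome 1, 42925375 to 42958868), which encodes the widely expressed glucose transporter of the plasma membrane, was at 76.4 CPM per kilobase and held 55.6% of the sum of its class. SLC2A3, a high-affinity glucose transporter gene, was at 1.51, so that SLC2A1 was 50.7 times as high per kilobase of exon and 46.6 times per kilobase of coding sequence. SLC2A6 was at 5.40 and SLC2A8 at 4.87, and both encode transporters of intracellular membranes.

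The genes of the sugar phosphate exchanger family SLC37A2 and SLC37A4 followed SLC2A1, at 11.8 and 8.71 CPM per kilobase. SLC37A4 encodes the glucose-6-phosphate transporter of the endoplasmic reticulum. SLC5A3, which takes up the osmolyte myo-inositol, was at 7.01. The proton-coupled myo-inositol transporter gene SLC2A13 was the lowest of the class per kilobase of exon, at 0.455. Per kilobase of coding sequence it was at 2.35, above SLC2A10 at 1.51 and SLC2A12 at 1.93. Of the 16 genes of the class, 7 were in the lowest 25% of the table per kilobase of exon.

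Of the 8 monocarboxylate transporter genes, 1 was high. SLC16A3 (chromosome 17, 82228397 to 82261129), which encodes the lactate exporter typical of glycolytic cells, was at 58.5 CPM per kilobase and 9.08 log2 CPM. It held 91.7% of the sum of its class of 8 genes. SLC16A1 (chromosome 1, 112911847 to 112957013), the gene for the widely expressed lactate transporter, was at 0.297 CPM per kilobase and 0.92 log2 CPM, the lowest log2 CPM of all 179 genes.

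SLC16A3 was 197 times as high as SLC16A1 per kilobase of exon and 308 times per kilobase of coding sequence. The log2 CPM of SLC16A1, at 0.92, was at percentile 1.55 and near the lowest of all genes, 0.56. The size of these ratios is therefore uncertain. SLC16A5 lay between SLC16A1 and SLC16A3 at 1.67 CPM per kilobase. SLC16A7, which encodes a lactate and pyruvate transporter of high affinity, was at 0.456. Thus 7 of the 8 genes were in the lowest 25% of the table per kilobase and SLC16A3 was in the highest 10%.

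Zinc is moved into the cytosol by SLC39 proteins and out of it, to the outside or into vesicles, by SLC30 proteins. Of the 18 zinc transporter genes, 12 lay above the median of the table, and their class median was the highest. SLC39A7 (chromosome 6, 33200445 to 33204439), which releases zinc from the endoplasmic reticulum, was at 54.8 CPM per kilobase. SLC39A6, a plasma membrane importer gene that is known as oestrogen-induced in breast cancer, was at 32.6, and the vesicular transporter gene SLC39A13 was at 19.4.

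SLC30 genes were lower than these. SLC30A9 was at 11.9, SLC30A5 at 10.6 and the exporter gene SLC30A1 at 10.3 CPM per kilobase. SLC30A3, which fills synaptic vesicles with zinc in neurons, was the lowest at 0.362. SLC39A1 was at only 0.635 and 1.11 log2 CPM. Of the windows of 75 bases in its canonical transcript, 95.8% were also found in a transcript of an annotated protein-coding gene on the same strand, ENSG00000285779, which was not analysed here, and the part of this overlap in the low level was not tested.

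The mitochondrial carriers, with 39 genes, were the largest class. The ADP/ATP carriers exchange cytosolic ADP for ATP made in the matrix. Of their genes, SLC25A5 (chromosome X, 119468422 to 119471396) was at 382 CPM per kilobase. SLC25A6 (chromosome X, 1386152 to 1392113, in the pseudoautosomal region) was at 303. By exon length these were the highest levels of all 179 genes. Per kilobase of coding sequence, SLC25A3 at 781 and SLC7A5 at 707 were higher than SLC25A5 at 664 and SLC25A6 at 526. SLC25A4, the isoform gene typical of heart and muscle, was at 8.77. SLC25A5 was 43.5 times as high as SLC25A4 per kilobase of exon and 14.04 times per kilobase of coding sequence. The 3 genes held 60.8% of the sum of the class, and the other 36 had a median of 4.70.

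SLC25A3 (chromosome 12, 98593591 to 98606379), the phosphate carrier gene that supplies phosphate for ATP synthesis, was at 95.02 CPM per kilobase and had the highest log2 CPM of the class at 9.72. Carriers of other metabolites followed. SLC25A39, a gene required for glutathione import, was at 58.8, the citrate carrier gene SLC25A1 at 47.0 and the ATP-Mg/phosphate carrier gene SLC25A24 at 36.3. The oxoglutarate carrier gene SLC25A11 was at 20.2, the aspartate/glutamate carrier gene SLC25A13 at 16.3 and the iron importer gene SLC25A37 at 16.0.

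In the lowest 25% of the table per kilobase were 6 mitochondrial carriers, and SLC25A45 was the lowest at 0.341 by exon length. Per kilobase of coding sequence SLC25A32 was lower than SLC25A45, at 2.66 compared with 3.10. SLC25A26, which imports S-adenosylmethionine, was at 0.891 by the GENCODE length and 3.32 by the length in the authors' deposited table. SLC25A32, linked to mitochondrial folate and flavin transport, was at 0.689 and 1.33 log2 CPM. It shared 87.8% of its windows of 75 bases with another annotated gene on the same strand, ENSG00000285982, which was not analysed here, and the part of this in its level was not tested.

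Transporters of inorganic ions had a median of 3.79 CPM per kilobase over 27 genes. The phosphate importer gene SLC20A1 (chromosome 2, 112645939 to 112663825) was at 41.1 and its relative SLC20A2 at 5.05. SLC4A2, an exchanger of chloride and bicarbonate, was at 30.4. Genes that control cell pH and volume lay near the median of the table. The sodium/proton exchanger gene SLC9A7 was at 8.51, the sodium, potassium and chloride cotransporter gene SLC12A2 at 5.75 and the sodium bicarbonate cotransporter gene SLC4A7 at 4.22. SLC4A8 was the lowest at 0.162, and 12 of the 27 genes were in the lowest 25% per kilobase.

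Other classes held fewer genes. The choline transporter-like genes SLC44A2 and SLC44A1 were at 45.4 and 8.11 CPM per kilobase, and the fatty acid transport gene SLC27A4 was at 25.6. Among nucleotide sugar transporters, SLC35A4 was at 29.3, the UDP-galactose transporter gene SLC35A2 at 11.1 and SLC35A5 at 7.18. SLC35A1, the CMP-sialic acid transporter gene, was at 2.23 and shared 54.0% of its windows with another annotated gene on the same strand. Of the vitamin transporters, the riboflavin transporter gene SLC52A2 was at 20.7, the biotin and pantothenate transporter gene SLC5A6 at 12.8 and the vitamin C transporter gene SLC23A2 at 6.56. The reduced folate carrier gene SLC19A1 was at 0.459.

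Among metals other than zinc, the magnesium transporter genes SLC41A1 and SLC41A3 were at 12.7 and 7.48 CPM per kilobase and the copper importer gene SLC31A1 at 11.4. The iron importer gene SLC11A2 was at 3.23 and the iron exporter gene SLC40A1 at 0.679. Organic anion and cation transporters had a low median of 1.33, with SLC10A3 at 36.0, the vesicular nucleotide transporter gene SLC17A9 at 24.8, the lysosomal sialic acid exporter gene SLC17A5 at 8.53 and SLC22A15 the lowest at 0.410. Of the 3 genes grouped with nucleosides, the purine nucleobase transporter gene SLC43A3 was at 27.9, while SLC29A3 and SLC29A4 were at 0.954 and 0.597. The lysosomal and related genes SLC66A2, SLC66A3 and SLC66A1 were at 8.004, 4.79 and 3.22.

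**Figure D4:**
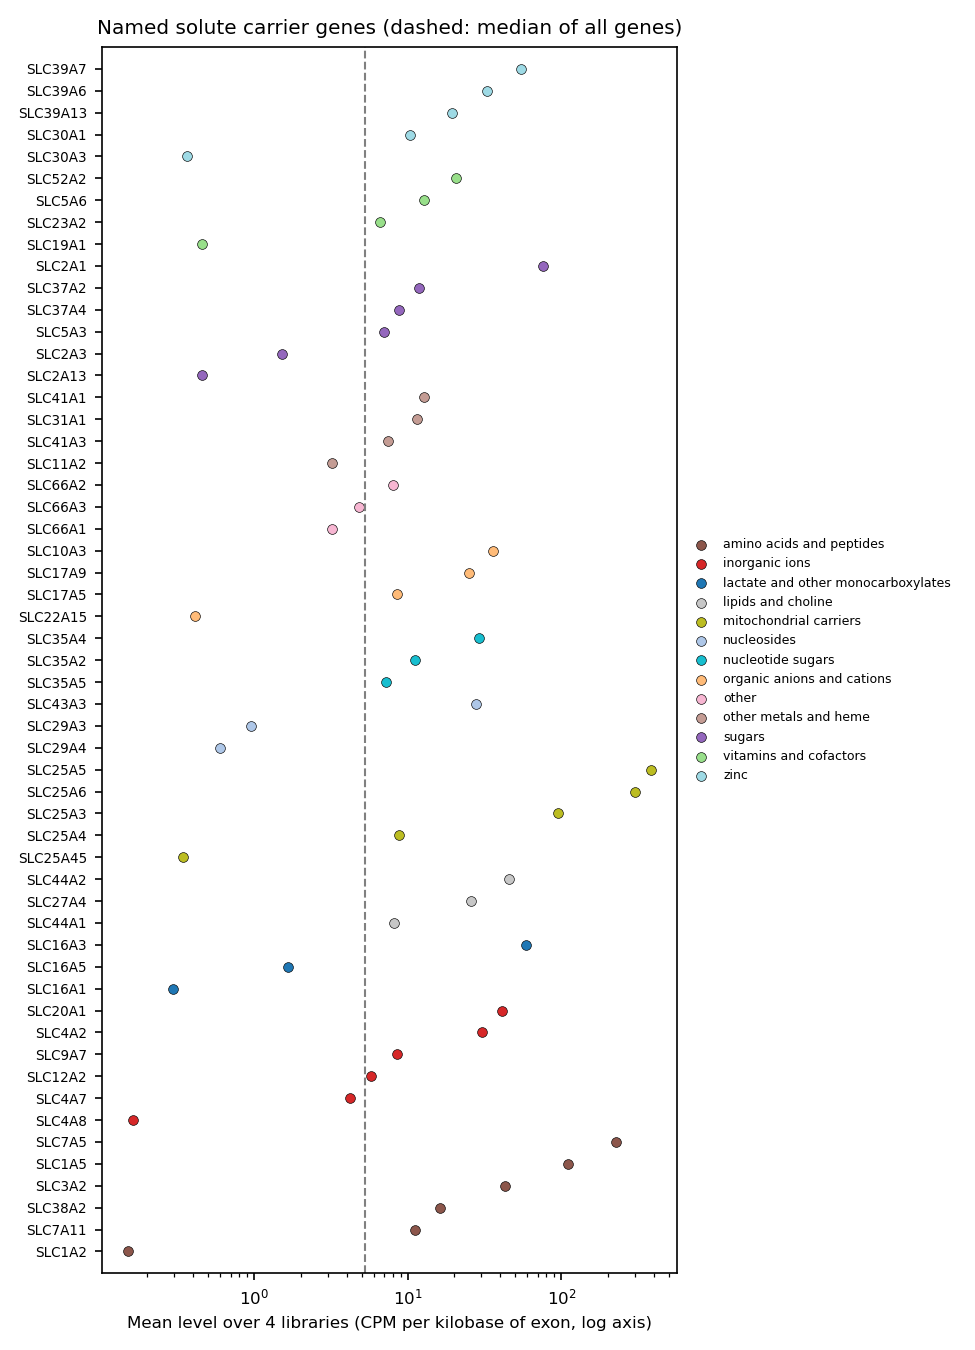
Mean level in CPM per kilobase of exon (log axis) of solute carrier genes chosen for description by rank within their class or from a fixed list (rows, coloured by class), with the median of all genes as a dashed line at 5.24. SLC25A5 at 382 and SLC25A6 at 303 are farthest to the right, and SLC1A2 at 0.150 and SLC4A8 at 0.162 farthest to the left.

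Levels were also set side by side for solute carrier genes that are neighbours in the genome. Within 100 kilobases of each other lay 6 pairs of solute carrier genes. SLC25A43 and SLC25A5 are 13944 bases apart on the same strand of chromosome X, at 16.4 and 382 CPM per kilobase. On chromosome 11, SLC43A3 was at 27.9 and SLC43A1 at 3.404. On chromosome 5, the organic cation and carnitine transporter genes SLC22A4 and SLC22A5 were at 2.71 and 0.931. The order of these genes depended on the length used, as the merged exons of SLC22A5 span 18390 bases. SLC22A5 was the higher by log2 CPM, at 4.10 compared with 2.88. It was also higher per kilobase of coding sequence, at 10.2 compared with 4.46. On chromosome 2, SLC5A6 was at 12.8 and SLC30A3 at 0.362, and on chromosome 8, SLC52A2 was at 20.7 and SLC39A4, an intestinal zinc importer gene, at 4.87.

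The levels also depend on how reads were assigned where genes overlap. For 144 of the 179 genes no window of 75 bases in the canonical transcript was found in a transcript of another gene, apart from the Y copy of SLC25A6. For SLC25A6, 100% of the windows were shared with the Y copy, which was not analysed here. For 9 other genes, 20% or more of the windows were shared with 1 other gene, which in each case was not analysed here. These were SLC39A1, SLC25A32 and SLC35A1 above, the dicarboxylate carrier gene SLC25A10 (61.5%), SLC43A3 (44.4%), SLC9A3 (39.2%), SLC39A3 (25.6%), the NAD carrier gene SLC25A51 (21.97%) and the acetyl-CoA transporter gene SLC33A1 (21.4%). The part of these overlaps in the levels was not tested. Exons overlapped those of another annotated gene on the same strand for 27 genes and on the opposite strand for 79.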

How the data were processed

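Ribosome-depleted, stranded libraries of 2 cordycepin and 2 DMSO samples were sequenced by the authors as 75 bp paired-end reads, mapped to GRCh38.p13 and counted with rsubread. The submitters' processing notes also name hg38, TopHat, HTSeq, DESeq and Cufflinks, with no role given. The authors' deposited table gives a mean log2 CPM over all libraries and a length in bases for each gene. Its normalization and low-count filter are not given in the sources used here. The table also holds the authors' own comparison (log2 fold changes, F statistics, p-values and adjusted p-values), which was not used. There were 0 unused columns of values per sample.

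Here log2 CPM was converted to CPM and divided by the exon length of the gene in GENCODE release 44, with no pseudocount. Of the table's gene IDs, 13922 (99.7%) were matched, including all 179 solute carrier genes, of which 156 had the same start and end. Coordinates are those of the table. A percentile is the percentage of genes with a lower level. Exons of all transcripts were merged, so genes with long or rare transcripts have lower levels per kilobase. Windows of 75 bases were compared on the transcript strand. No test was made. Genes described are the 3 highest of each class, the lowest of classes with 8 or more, a fixed list, and genes that share sequence with another gene. SLC35B1 was on that list but does not follow the symbol rule, and other genes were named after their values were seen. Some genes that the rule names are not reported here. The genes and lists were chosen with earlier results of these data known. The window count and median intervals were tested on simulated data. Levels were computed with pandas 2.3.3 and numpy 2.4.6 in Python 3.11.15, intervals with scipy 1.17.1, and figures were drawn with matplotlib 3.10.9.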

Additional observations from a re-analysis of the deposited data

How the results depend on the processing

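No paired analysis was possible because the table holds no values for single libraries, and for the same reason no replicate could be left out. The share of genes above the median of the table fell from 51.4% to 43.0%, just outside its interval, with levels per kilobase of exon and likewise with levels per kilobase of the length in the deposited table. It stayed within the interval with low genes removed (52.6%) and with every symbol beginning with SLC (50.2%). With protein-coding genes only it fell to 44.7%, within the interval and near its lower limit of 43.8%. Class medians were compared as percentiles of all genes. The percentile had to stay within a 95% binomial interval over the genes of the class. In classes of 8 genes or fewer the limits were the whole range of the class, so staying within them says little. Without length correction the inorganic ion class moved from percentile 41.6 to 52.5 and the class of other carriers from 47.6 to 32.3. With low genes removed, the class of other carriers was at percentile 33.9. All 3 of its genes were kept and its median stayed at 4.79 CPM per kilobase, so only the genes compared had changed. In this setting each percentile was taken among the genes left, whereas the intervals were set against all genes. The 11 other classes without length correction, and 12 classes with low genes removed, stayed within their intervals, which are wide. With low genes removed the monocarboxylate class held only SLC16A3 and its percentile rose from 9.23 to 92.0, still within its interval. For the share, genes in the lowest 25% of log2 CPM counted as low. The planned use of RefSeq protein lengths was not run. Coding lengths from GENCODE and lengths in the deposited table, both added after seeing the data, left all 13 classes within theirs. For 5 genes the GENCODE length was over 1.5 times that in the table. SLC7A5 was 2.06 times as high as SLC1A5 per kilobase of exon and 3.14 times per kilobase of coding sequence. The unknown depth limits what can be said of the lowest genes.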

Other observations

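Symbols beginning with SLC that do not follow the rule numbered 36. Of these, 19 belong to the SLC35B to SLC35G groups, most of which encode nucleotide sugar transporters or carriers of unknown substrate in the secretory pathway. Per kilobase of exon, the gene for the Golgi transporter of the sulfate donor, SLC35B2, was the highest of them at 60.4 CPM and SLC35E3 the lowest at 0.565. SLC35B1, an ATP carrier gene of the endoplasmic reticulum, was at 9.58 and SLC35F2 at 32.5. The mitochondrial sodium/calcium exchanger gene SLC8B1 was at 9.73, although no SLC8A gene had a level. Of the organic anion transporters named SLCO, SLCO3A1 was at 2.66, SLCO4A1 at 2.05 and SLCO1B3 at 0.695.

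The antisense RNA gene SLC9A3-AS1 had a higher mean level than the sodium/proton exchanger gene SLC9A3, at 4.05 compared with 2.10 log2 CPM and at 3.51 compared with 0.747 CPM per kilobase. The libraries were stranded, and whether strand was used in counting is not given in the sources used here. SLC9A3 also shared 39.2% of its windows of 75 bases with PP7080, a noncoding RNA gene on the same strand that was not analysed here. The part of either overlap in these levels was not tested.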
